A study of Mus musculus with 6 samples.

Results

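Genes of the Nodal and bone morphogenetic protein (BMP) pathways are described here by the places where histone H3 acetylated at lysine 27 (H3K27ac) was found around them in mouse embryonic stem cells (mESCs). The genes were taken by name: the ligands Nodal and Bmp4, the co-receptor Tdgf1, the extracellular antagonists Lefty1 and Lefty2, the intracellular signal carriers Smad2 and Smad3, the intracellular inhibitor Smad7 and the target genes Id1 and Id3. They were 10 of the 27706 protein-coding and long intergenic noncoding RNA genes that were compared with the list of H3K27ac peaks.

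H3K27ac was profiled by chromatin immunoprecipitation and sequencing (ChIP-seq) in E14 mESCs, labelled as the E14Tg2A Rosa26-Cre Oct4-IRES-Puro line. All cells were grown in N2B27 medium with leukaemia inhibitory factor (LIF), the MEK inhibitor PD0325901 and the GSK3 inhibitor CT-99021, and chromatin of a human cell line was added to every sample as a spike-in. The Control group was given DMSO, the solvent. The treated groups were given 100 nM NVP-2, an inhibitor of the elongation kinase CDK9, or 800 nM actinomycin D, a DNA-binding inhibitor of transcription, for 120 min, with 2 replicates in each of the 3 groups. The list analysed holds 22973 peaks of the Control group, pooled by the authors over its 2 replicates, and the treated libraries were not analysed here. It gives positions on the mouse genome mm10 (GRCm38) and no height or read count, so the sequencing depth, the strength of a peak and the spread between replicates cannot be read from it. A gene without a listed peak may have lacked the mark or failed a filter of the authors, and these cannot be told apart.

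The label of the cells was checked with marker promoters. A promoter, here 1 kb on either side of any transcription start site (TSS) of a gene, counted as marked when it overlapped a peak by at least 1 bp. Of 10 genes typical of mESCs, 9 had a marked promoter, and the exception was Klf4, whose nearest peak lay 14.1 kb away. Of 4 markers each, 2 were marked for endoderm (Gata4 and Gata6), 1 for neural cells (Sox1) and 1 for fibroblasts (Pdgfrb).

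Nodal and BMP ligands are secreted proteins of the TGF-beta superfamily that bind paired serine/threonine kinase receptors. Nodal needs an EGF-CFC co-receptor such as TDGF1 (Cripto), signals through SMAD2 and SMAD3 with SMAD4, and is carried to many of its targets by the DNA-binding partner FOXH1. Its targets include its own gene and those of its antagonists LEFTY1 and LEFTY2. BMP4 signals through SMAD1 and SMAD5 and induces the ID genes, whose products block basic helix-loop-helix factors and have been linked to self-renewal of mESCs. SMAD7 is induced by both branches and inhibits the activated receptors.

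Of the 10 genes, 7 had a marked promoter, namely Bmp4, Tdgf1, Smad2, Smad3, Smad7, Id1 and Id3. Nodal, Lefty1 and Lefty2 did not. Over all genes, 43.6% of promoters were marked (12071 of 27706, 95% Wilson interval 43.0 to 44.2%), and over the 21853 protein-coding genes the share was 51.0%. The same 7 genes had a peak in the annotated gene body, against 48.3% of all genes and 55.8% of protein-coding genes. Smad3 was the exception of the 10 in having a body peak apart from its promoter windows. This was a feature of 16.9% of all genes and 19.3% of protein-coding genes. All 10 genes had at least 1 further peak, outside the gene and its promoter windows, in the 50 kb on either side. Such a peak was present for 63.2% of all genes and 67.5% of protein-coding genes. With 10 genes that were picked by hand, these counts are a description and were not tested.

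Within the genes and the 50 kb around them lay 46 distinct peaks, of which 7 were promoter peaks, 1 was the body peak of Smad3 and 38 were further peaks. Of the 38 further peaks, 16 had the TSS of a described gene as the nearest TSS, 9 lay within 1 kb of a TSS of another gene and 20 overlapped no protein-coding or long intergenic noncoding RNA gene. The number per gene ranged from 2 at Smad2 to 8 at Smad7, with a median of 5, against a median of 2 over all genes. Peaks covered a median of 21.0 kb of the gene and its 50 kb flanks, against 4.08 kb over all genes. Both medians over all genes include the long intergenic noncoding RNA genes. The extent covered ran from 3.01 kb at Smad2, below the median over all genes, to 64.6 kb at Smad7, above that of 99.3% of all genes.

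**Figure D1:**
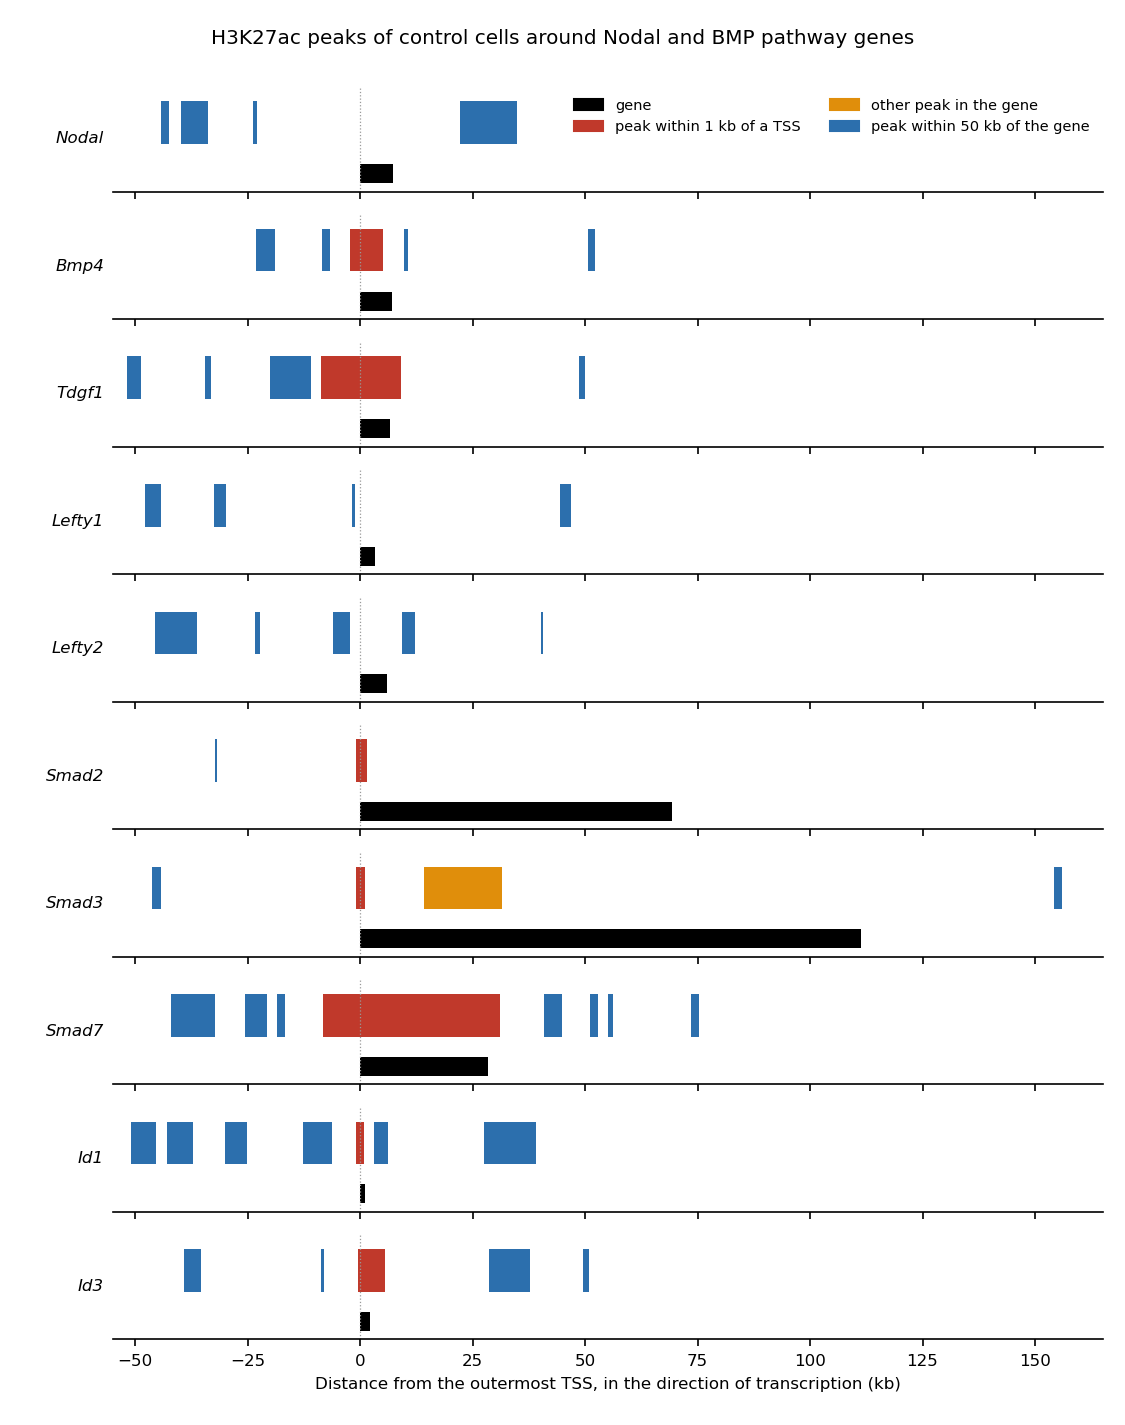
Listed H3K27ac peaks of Control mESCs along each of the 10 genes, drawn to scale with the distance in kb from the outermost TSS in the direction of transcription on the x axis; black bars are genes, red bars promoter peaks, orange bars other peaks in the gene and blue bars further peaks within 50 kb. Nodal, Lefty1 and Lefty2 carry no bar over the gene, whereas the red bars span Tdgf1, Smad7 and Id3 from end to end.

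Nodal, the ligand of the branch, had neither a promoter peak nor a body peak. The gene (ENSMUSG00000037171.6) lies on the plus strand at chr10:61417972-61425338 and has 1 annotated TSS. It sits in a stretch of 45.0 kb without a listed peak, longer than 63.4% of the 22952 gaps between neighbouring peaks, whose median was 26.7 kb. The nearest peak began 22.1 kb downstream of the TSS, was 12659 bp wide and covered the promoter of Eif4ebp2. Upstream, peaks of 989, 5993 and 1715 bp began 23.8, 39.8 and 44.3 kb before the TSS, and that of 5993 bp covered the promoter of Pald1. In none of the 4 peaks was Nodal the gene with the nearest TSS. Among the 15635 genes with an unmarked promoter, the median distance from a TSS to the nearest peak was 66.0 kb, so that the nearest peak of Nodal lay closer than the median.

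Nodal is known to carry an enhancer with FOXH1 sites in its first intron. Letters of this kind (AATCCACA or AATACACA, read on both strands) occurred 7 times in the 20 kb before the gene and in the gene itself, 5 times before it and 2 times in intron 1, 1327 and 2121 bp after the TSS. All of the sequence searched lies in the stretch without a listed peak described above. Stretches of this kind at other genes were not searched, so whether these counts are unusual cannot be told. Of the 4 listed peaks within 50 kb, that at the Eif4ebp2 promoter held 3 FOXH1 matches and the others held none. Both intron matches are shown, with the FOXH1 letters in capitals, on the plus strand of GRCm38 at chr10:61419269-61419336 and chr10:61420063-61420130, followed by the RefSeq promoter of Nodal at chr10:61417722-61418021 (plus strand, 250 bases before to 50 after the TSS), which held none of the letters searched.
Nodal intron 1, first match: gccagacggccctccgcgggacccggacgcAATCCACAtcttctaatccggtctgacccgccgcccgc
Nodal intron 1, next match: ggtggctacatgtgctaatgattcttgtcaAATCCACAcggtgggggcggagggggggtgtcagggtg
Nodal promoter: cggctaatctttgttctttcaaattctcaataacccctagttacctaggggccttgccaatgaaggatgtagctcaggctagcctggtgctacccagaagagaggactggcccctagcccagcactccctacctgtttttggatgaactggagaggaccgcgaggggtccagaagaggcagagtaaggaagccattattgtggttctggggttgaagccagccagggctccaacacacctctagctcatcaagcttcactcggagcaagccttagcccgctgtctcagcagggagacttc

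Bmp4, the BMP ligand of the set, differed from Nodal in that both of its TSSs lay inside a peak. The gene (ENSMUSG00000021835.15; chr14:46383520-46390669, minus strand) was overlapped by a peak of 7282 bp at chr14:46385533-46392814, which ran from 2.15 kb before the outermost TSS to 5.14 kb after it. The peak covered 71.8% of the gene and touched exons 1, 2 and 3 of its 4 exons. It was wider than the promoter peaks of 82.8% of marked genes. Upstream stood 2 more peaks for which Bmp4 had the nearest TSS, of 1891 bp beginning 8.54 kb and of 4152 bp beginning 23.1 kb before the TSS. The promoter window had a GC content of 64.0%, above that of 79.7% of the 32851 promoters in the RefSeq table, and is shown on the minus strand at chr14:46390620-46390919.
Bmp4 promoter: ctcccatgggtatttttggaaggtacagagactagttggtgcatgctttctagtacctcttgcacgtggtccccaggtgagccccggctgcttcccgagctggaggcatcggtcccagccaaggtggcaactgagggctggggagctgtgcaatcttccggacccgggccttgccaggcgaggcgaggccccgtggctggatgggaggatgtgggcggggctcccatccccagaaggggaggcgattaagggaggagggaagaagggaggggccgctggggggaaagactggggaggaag

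Tdgf1, which encodes the co-receptor that Nodal needs, lay wholly inside a peak. All 3 TSSs and all 6 exons of the gene (ENSMUSG00000032494.12; chr9:110939603-110946158, minus strand) fell in a peak of 17768 bp at chr9:110937031-110954798, from 8.64 kb before to 9.13 kb after the outermost TSS. The median share of a gene covered by peaks was 10.2% over the 12071 marked genes. The width was above that of the promoter peaks of 94.9% of marked genes. The same peak held the promoter of Lrrc2, so the acetylation of the 2 promoters cannot be told apart. A peak of 9208 bp ended 10.8 kb before the TSS, but it overlapped Lrrc2, which had the TSS nearest to it. Peaks within 50 kb covered 30.9 kb in all, above 92.4% of genes. In none of the 4 further peaks was Tdgf1 the gene with the nearest TSS.

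The Tdgf1 promoter is shown because its base composition stood apart from the other 4 promoters found in the RefSeq table, those of Nodal, Bmp4, Smad3 and Id3. Its GC content was 41.7%, below the 54.0 to 67.7% of the others and below the median of 52.7% over all 32851 promoters. A unit of 19 bases, in capitals, stands in 2 adjacent copies from 48 bases before the TSS. Adjacent copies of a unit of at least 15 bases occurred in 0.822% of all promoters (270 of 32851), and the search for them was added after the sequence had been seen. The strand is minus, and the window is chr9:110946109-110946408 of GRCm38.
Tdgf1 promoter: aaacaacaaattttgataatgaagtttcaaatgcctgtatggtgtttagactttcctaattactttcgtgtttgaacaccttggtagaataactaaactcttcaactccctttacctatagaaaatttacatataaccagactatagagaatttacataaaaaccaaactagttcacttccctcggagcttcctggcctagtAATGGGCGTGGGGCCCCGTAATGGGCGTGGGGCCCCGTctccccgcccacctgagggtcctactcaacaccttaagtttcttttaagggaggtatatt

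Lefty1 and Lefty2, the feedback antagonists of Nodal, lie on the same strand 35.9 kb apart and neither was overlapped by a listed peak. For Lefty2 (ENSMUSG00000066652.5; chr1:180893108-180899103, plus strand) the nearest peak was 3606 bp wide, at chr1:180887171-180890776, and ended 2332 bp before the TSS. For Lefty1 (ENSMUSG00000038793.8; chr1:180935022-180938400, plus strand) it was 549 bp wide, at chr1:180933295-180933843, and ended 1179 bp before the TSS, just beyond the promoter window of 1 kb. Of all peaks, 5.09% were narrower than this peak, whereas that before Lefty2 was wider than 69.6% of them. With a window of 2 kb on either side of the TSS, Lefty1 counted as marked and 8 of the 10 genes did, whereas Lefty2 remained unmarked.

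The flanks of the pair overlap, and 3 peaks lay within 50 kb of both genes, among them those just described. Lefty2 had 5 peaks within 50 kb that covered 17.4 kb, and Lefty1 had 4 that covered 9.27 kb. The stretch without a listed peak that holds Lefty2 was 11.7 kb long, and that which holds Lefty1 was 45.7 kb long. Nodal and both antagonist genes were alike in having no peak over the gene, whereas the nearest peak upstream ended 1.18 and 2.33 kb before the TSS of Lefty1 and Lefty2 and 22.8 kb before that of Nodal.

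The peak before Lefty2 is shown in part because of the letters it holds. FOXH1 letters stood at chr1:180888893-180888900 and chr1:180888976-180888983, 4215 and 4132 bp before the TSS and 83 bases from start to start. A SMAD palindrome (GTCTAGAC) followed 343 bases further on, at chr1:180889319-180889326. An enhancer upstream of Lefty2 with FOXH1 sites is known. A pair of FOXH1 matches within 100 bases occurred in 137 of 22973 peaks (0.596%), and in 15 of the 2991 peaks whose width was within 20% of this peak (0.502%). A pair together with a palindrome occurred in 18 peaks (0.0784%), and this peak was the 1 such peak of like width. These arrangements were counted after the matches had been seen, and they are descriptions. Capitals mark the FOXH1 letters at chr1:180888843-180889033 and the palindrome at chr1:180889289-180889356, both on the plus strand of GRCm38. The 549-bp peak before Lefty1 held none of the letters searched.
Lefty2 upstream peak, FOXH1 pair: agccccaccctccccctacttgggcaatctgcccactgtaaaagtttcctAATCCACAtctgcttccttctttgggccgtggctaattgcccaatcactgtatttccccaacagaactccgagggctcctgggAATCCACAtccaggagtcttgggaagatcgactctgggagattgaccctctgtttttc
Lefty2 upstream peak, SMAD palindrome: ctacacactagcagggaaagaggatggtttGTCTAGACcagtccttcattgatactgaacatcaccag

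Smad3, a signal carrier of the Nodal branch, was the gene of the set with a peak in its body away from the promoter. The gene (ENSMUSG00000032402.12; chr9:63646767-63757994, minus strand) is 111 kb long and has 4 TSSs of protein-coding transcripts, of which 1, the outermost, lay in a peak. That promoter peak was 1979 bp wide, at chr9:63756846-63758824, and narrower than the median of 2297 bp over marked genes. Inside intron 1 of the transcript that starts there, a peak of 17466 bp at chr9:63726344-63743809 extended from 14.2 to 31.6 kb after the outermost TSS. It was wider than 97.4% of all peaks, and it overlapped no exon of that transcript but contained the start of a noncoding transcript of Smad3. The protein-coding TSSs nearest to and farthest from a peak among the other 3 lay 5.77 and 59.8 kb away. The further peaks of Smad3, of 2060 bp 44.2 kb upstream and of 1725 bp 43.1 kb downstream, were near the limit of the distance searched.

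Smad2 and Smad7, both on chromosome 18, were at opposite ends of the set in number of peaks and in kb covered. Smad2, the other signal carrier of the branch (ENSMUSG00000024563.16; chr18:76241580-76310963, plus strand), had a promoter peak of 2481 bp that covered 2.27% of its 69.4 kb. The peak contained 4 of its 6 TSSs, and the other 2 lay 18.0 and 19.3 kb from it. It had a GC content of 61.5% and a ratio of observed to expected CpG of 0.983, higher than in 99.4% of all peaks, whose median was 0.299. The single further peak was 529 bp wide and stood 31.7 kb upstream.

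Smad7, the inhibitor (ENSMUSG00000025880.11; chr18:75367529-75395935, plus strand), lay entirely in a peak of 39346 bp that began 8.26 kb before the outermost TSS and ended 31.1 kb after it. It held all 4 TSSs and all 4 exons, and was wider than the promoter peaks of 99.1% of marked genes. All 7 further peaks of Smad7 had Smad7 as the gene with the nearest TSS, with widths of 9797, 4912 and 1769 bp upstream and 3990, 1697, 1255 and 1820 bp downstream. The number of peaks, 8, exceeded that of 96.2% of all genes. SMAD palindromes stood 353 bp before the TSS and 30.7 kb after it in the promoter peak, and 56.0 kb after it in a further peak. Of the 118 peaks of like width, 37 (31.4%) held such a palindrome, against 790 of all 22973 peaks (3.44%). Since peaks within 2 kb of each other had been merged by the authors, a peak of this width may join several enriched stretches, which was not tested.

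**Figure D2:**
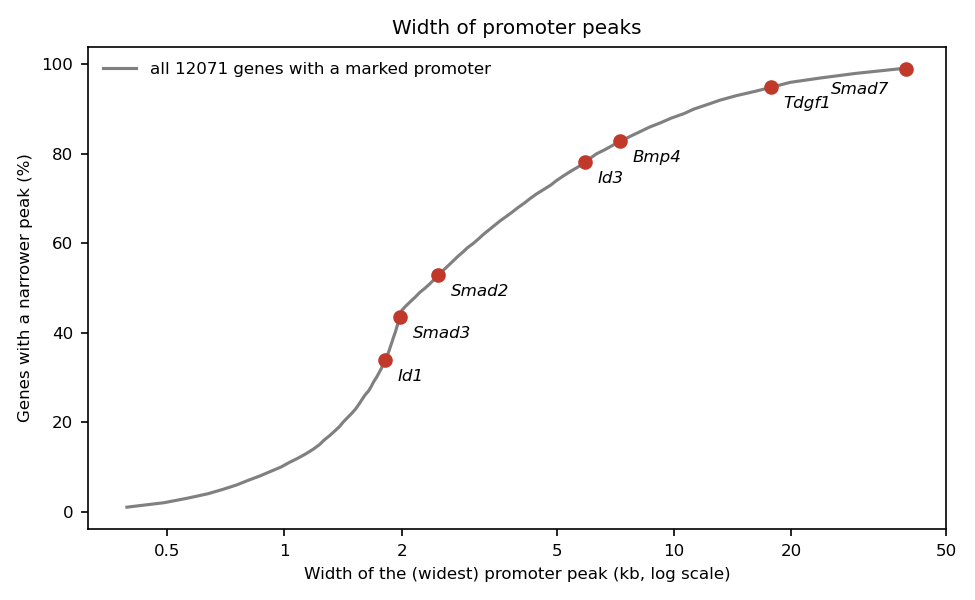
Width of the promoter peak (x axis, kb on a log scale) against the percentage of marked genes with a narrower promoter peak (y axis) for all 12071 marked genes (grey line), with the 7 marked genes of the set as red points. Id1 lies lowest at 33.8% and Smad7 highest at 99.1%.

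Id1 and Id3, targets of BMP signalling, both had their TSS inside a peak but differed in how the listed peaks were laid out. Id1 (ENSMUSG00000042745.9; chr2:152736251-152737410, plus strand), a gene of 1.16 kb, had a promoter peak of 1816 bp at chr2:152735371-152737186, the narrowest of the 7, and TATAAA stood 29 bp before its TSS. Separate peaks flanked it, of 6347 bp beginning 12.6 kb before the TSS and of 3043 bp beginning 3.22 kb after it, and Id1 had the nearest TSS to both. With its other 4 further peaks, among them those at the promoters of Mcts2 and Gm26841, peaks covered 38.1 kb within 50 kb of Id1, above 95.2% of genes. Id3 (ENSMUSG00000007872.3; chr4:136143497-136145755, plus strand), of 2.26 kb, lay in full in a single peak of 5896 bp at chr4:136143060-136148955. That peak extended from 0.437 kb before the TSS to 5.46 kb after it and so reached past the end of the gene. Further peaks of 790 and 3685 bp upstream, with Id3 as the gene of the nearest TSS, began 8.72 and 39.1 kb before the TSS. A peak of 9056 bp downstream covered the promoter of E2f2. The promoter peak of Id1 ended 0.935 kb after its TSS, and the next peak began 3.22 kb after it. Peaks within 2 kb of each other had been merged by the authors. How far the contrast between Id1 and Id3 depends on that distance was not tested.

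Sequences of both ID genes are shown for the arrangement known from BMP response elements, GGCGCC followed after 5 bases by GTCT, which is bound by SMAD1 or SMAD5 with SMAD4. Exact matches, read on both strands and each also a match to GGCGCC alone, were found 3 times in the peaks around the 10 genes, 1 time at Id1 and 2 times at Id3. At Id1 the match lay at chr2:152739471-152739485, 3220 bp after the TSS at the edge of the downstream peak and outside the gene. At Id3 the matches lay at chr4:136144793-136144807 in an intron, 1296 bp after the TSS, and at chr4:136147981-136147995, 4484 bp after the TSS and outside the gene, both in the peak over the promoter. The windows printed are chr2:152739441-152739515, chr4:136144763-136144837 and chr4:136147951-136148025, on the plus strand of GRCm38, and capitals mark the match with its spacer.
Id1 downstream peak: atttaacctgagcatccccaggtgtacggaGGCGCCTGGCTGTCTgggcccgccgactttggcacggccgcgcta
Id3 intron: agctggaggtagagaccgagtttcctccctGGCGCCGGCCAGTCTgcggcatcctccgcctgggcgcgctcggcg
Id3 downstream: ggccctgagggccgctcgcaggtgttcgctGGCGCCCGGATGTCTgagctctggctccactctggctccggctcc

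At least 1 match of this arrangement occurred in 78 of the 22973 peaks (0.340%), and in 19 of the 3276 peaks of a width within 20% of that after Id1 (0.580%). A peak with 2 or more matches was found 2 times (0.00871%), at Id3 and at a peak of 2937 bp at chr4:155991585-155994521 that held the promoters of B3galt6 and Sdf4. Among the 2142 peaks whose width was within 20% of that of the Id3 peak, the Id3 peak was the only such peak. This count was made after the matches had been seen, and B3galt6 and Sdf4 were named for it. The Id3 peak also held 9 matches to GGCGCC in all, of which 2 were those with GTCT.

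The letters searched were also counted over the peaks of all 10 genes and set beside peaks at large. When all peaks were tiled in 287301 windows of 300 bases, 779 of them in the 46 peaks here, FOXH1 letters were present in 2.31% of these windows and 2.57% of all windows. GGCGCC was present in 5.65% against 4.37%, POU5F1 letters (ATGCAAAT) in 1.80% against 1.61%, ESRRB letters (TCAAGGTCA) in 1.93% against 1.31%, and TCF letters (CTTTGAT) in 4.24% against 4.56%. TATAAA was present in 9.88% of the windows against 15.7% of all. The median GC content was 53.4% in the promoter peaks and 51.6% in the further peaks here, against 49.5% over all peaks. Whether the shares of these letters follow base composition was not tested. The rarer letters rest on few windows, 5 with the SMAD palindrome (0.642% against 0.270%) and 3 with GGCGCC and GTCT (0.385% against 0.0268%). A match is a description of the sequence, and neighbouring windows of a peak are not independent.

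In the RefSeq promoter windows of 250 bases before to 50 after the TSS, none of the letters searched occurred in any of the 5 genes found in the table, while 30.7% of all 32851 promoters held at least 1 of them. The shares over all promoters were 1.82% for FOXH1, 0.213% for the SMAD palindrome, 11.9% for GGCGCC, 0.0731% for GGCGCC with GTCT, 1.74% for POU5F1, 0.423% for ESRRB, 3.73% for TCF and 13.6% for TATAAA. The RefSeq start of Id3 lies 325 bp from the GENCODE start, while the other 4 starts were the same in both annotations. In the same window around the outermost GENCODE start of all 10 genes, which was searched after the matches in peaks had been seen, 6 genes held letters, against 30.3% of all 27706 genes. GGCGCC stood at Id3, Smad2 and Smad7 (11.8% of all genes) and TATAAA at Lefty1, Lefty2 and Id1 (13.3%). Of these 6, Id3 held letters through its different start, and the other 5 were not in the RefSeq table, so the count of 0 rests on the genes in that table and on the start of Id3. FOXH1 letters and the SMAD palindrome were in none of the 10 windows. In windows of 1 kb before to 200 bases after the RefSeq starts, all 5 genes held at least 1 match, as did 74.7% of all promoters. No FOXH1 or POU5F1 letters were among them.

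The other genes of the pathways were taken from a list of 75 genes drawn up by role from textbook knowledge. Of these, 48 had a marked promoter (64.0%), beside the 43.6% of all genes and 51.0% of protein-coding genes given above. All 10 genes for inhibitors inside the cell were marked, with promoter peaks of 1567 bp at Smurf2, a ubiquitin ligase, to 34064 bp at Tgif1, a co-repressor of SMAD2. Of 10 SMADs and SMAD partners, 9 were marked, and the exception was Smad9, a BMP-type SMAD, whose nearest peak was 19.2 kb away. Of 12 receptors, 9 were marked, and those unmarked were Acvr1c, a type I receptor for Nodal, Acvrl1, a type I receptor of endothelium, and Bmpr1b, a type I BMP receptor. Of 6 co-receptors and processing proteases, 4 were marked, without Cfc1, the paralogue of Tdgf1, and Rgmb, a BMP co-receptor.

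Among the secreted factors, of 15 further ligands 6 had a marked promoter (40.0%, against 43.6% of all genes), from a peak of 862 bp at Tgfb2 to 14502 bp at Gdf3, a Nodal-related ligand expressed in pluripotent cells. Of 10 extracellular antagonists, 3 had a marked promoter, from 638 bp at Twsg1 to 4433 bp at Chrd, both binders of BMPs, with Fst, a binder of activin, in between. Of 12 target genes, 7 were marked, and T, Mixl1, Msx1 and Junb, all encoding transcription factors, were among the unmarked ones. The nearest peak stood 24.7 kb from T, 28.3 kb from Mixl1, 4.34 kb from Msx1 and 8.14 kb from Junb.

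**Figure D3:**
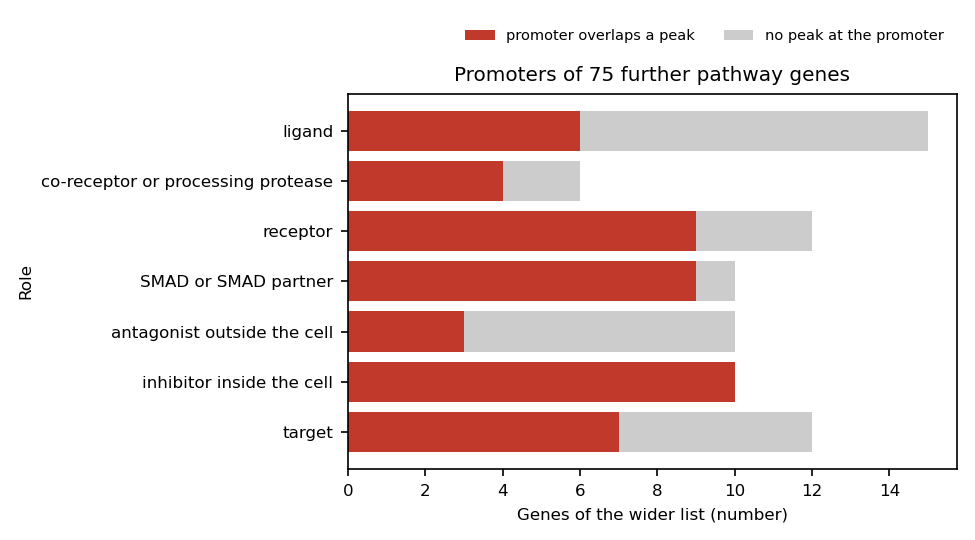
Number of genes (x axis) with a marked promoter (red) and without (grey) in each role (y axis) for the 75 further pathway genes. All 10 inhibitors inside the cell are marked, whereas 6 of 15 ligands and 3 of 10 extracellular antagonists are.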

How the data were processed

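H3K27ac ChIP-seq was performed by the authors in 6 samples, 2 replicates each of Control, NVP-2 and actinomycin D. According to the methods, reads were trimmed with Cutadapt and aligned with bwa meme to mm10 and a human genome. Duplicates were removed with Picard 2.9.1 and poorly mapped reads with SAMtools 1.4. Peaks were called with LanceOtron, merged within 2 kb, and filtered by height and distance to ATAC-seq summits. The deposited values used here are peak start and end positions in base pairs for Control, pooled over both replicates. Merging widens peaks and filtering can remove weak ones. The list gives no counts, so depth and replicate error cannot be read from it, and read totals stated by the authors were not used.

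Peaks were compared with GENCODE release 21 (M21) on GRCm38, using 67283 protein-coding and lincRNA transcripts, with coordinates counted from 1. Only counts, widths, distances and exact letter matches were computed. Promoter sequences came from RefSeq (GRCm38.p6), where 5 of the 10 genes matched. The promoters of Lefty1, Lefty2, Smad2, Smad7 and Id1 were not among them. All 75 genes of the wider list matched. Wilson intervals (95%) cover counting error only. Genes named from the wider list were those with an unmarked promoter where a role had 5 or fewer, and otherwise those with the widest and narrowest promoter peak. Smurf2, Tgif1, Fst and neighbouring genes other than Lrrc2 were named in addition after their values were seen. Some genes of the rule are not reported here. The genes and lists were chosen with earlier results of these data known. The promoter rule was tested on simulated data, where all 213 genes with a known overlap were recovered. Python 3.11.15, pandas 2.3.3, pysam 0.24.0 and matplotlib 3.10.9 were used.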

Additional observations from a re-analysis of the deposited data

How the results depend on the processing

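Of 34 values recomputed under another setting, 30 stayed within 1.5 times the main count or did not move. This is a weak measure, since a count of 7 of 10 cannot rise beyond 1.5 times its value. Several of the searched letters also stayed at 0 of 5 promoters in both windows. The number of genes with a marked promoter was 7 of 10 under 6 of 7 other settings and 8 with windows of 2 kb, while the share of all genes ranged from 39.0 to 44.6%. The further pathway genes with a marked promoter numbered 45 to 48 of 75. Genes with a further peak numbered 8 within 25 kb, without Smad2 and Smad3, and 9 with peaks of at least 1 kb, without Smad2. The main result that moved was the number of promoters with any searched letters, from 0 of 5 to 5 of 5 in windows of 1 kb before to 200 bases after the TSS, where GGCGCC was found at Id3, Smad3 and Nodal and TATAAA at Tdgf1 and Bmp4. It also moved to 6 of 10 around the outermost GENCODE starts of all 10 genes, an alternative added after the data were seen that changed both the genes and the start of Id3. A longer window holds more matches by construction. No paired analysis was possible because the list pools both Control replicates and no test was made. For the same reason no replicate could be left out.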
